A study of Oryza sativa Japonica Group with 10 samples.

Results

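Histones H3 and H4 form the central tetramer of the nucleosome, the particle around which nuclear DNA is wrapped. Cells that replicate their DNA need new histones to package the copies, and most H3 and H4 genes of plants are therefore transcribed mainly in dividing cells. A replacement form, H3.3, is made throughout the cell cycle and also in cells that no longer divide. In a grass shoot, divisions take place at the growing point and at the base of young leaves.

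The expression of 10 rice genes for core histones, chosen by locus ID, was followed here among the 55689 gene IDs of the series. Of these, 6 are H3 genes, which the annotation in the study's supplementary tables also calls histone H3, and 4 are H4 genes, taken as such from the rule that chose them. The RNA came from shoots of rice at the four-leaf stage, grown in a barrel, of the variety Zhonghua 11 (ZH11, the wild type) and of OsJAZ1-OE plants. The latter carry, in the ZH11 background, an additional copy of OsJAZ1, a repressor of jasmonate signaling, under the drought-inducible OsLEA3-1 promoter. The study selected independent transgenic lines, and its account of the RNA-seq does not say whether these libraries come from 1 of them or more. There were 3 libraries of ZH11 under normal conditions, 2 of ZH11 under drought stress, 3 of OsJAZ1-OE under normal conditions and 2 of OsJAZ1-OE under drought stress, in which the soil held 10 to 15% water. For both genotypes the authors left out the third drought library for its low correlation coefficient, and it was not analysed here. The drought libraries used were thus kept for their likeness, and the spread between them may be understated.

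The libraries held 32396154 to 34027909 fragments assigned to genes. OsJAZ1 (LOC_Os04g55920) was at 110.2 to 147 FPKM in the ZH11 libraries and at 1177 to 1388 FPKM in the OsJAZ1-OE libraries, so every library matched its labelled genotype. Within OsJAZ1-OE its level was high in both conditions, at 1199.8 to 1281 FPKM under normal conditions and 1177 to 1388 FPKM under drought. FPKM is a fragment count scaled to the length of the transcript and the size of the library, and it allows levels of different genes to be compared. The shoot label was checked with 3 photosynthesis genes, whose summed level was 5446 to 6334 FPKM under normal conditions and 3018 to 3232 FPKM under drought, while 2 root genes together lay at 4.93 to 11.6 FPKM. The 4 genes of the shoot meristem (the KNOX family) summed to only 0.0804 to 0.314 FPKM. The study's RNA methods speak of leaf samples, and these photosynthesis genes do not tell leaves from whole shoots. How much of the growing point and leaf bases was sampled is therefore not known. The study describes its libraries as biological replicates, and the tests measure the spread between those that the authors kept.

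All 10 genes have 1 transcript in the files, which spans its locus without an intron and measures 622 to 1633 bases. Among the H3 genes, LOC_Os06g06460 (chromosome 6, 3040092 to 3041121, minus strand) and LOC_Os06g06510 (chromosome 6, 3056088 to 3056861, plus strand) lie 14966 bases apart. The other H3 genes are LOC_Os01g64640 (chromosome 1, 37513746 to 37514564), LOC_Os04g34240 (chromosome 4, 20738833 to 20740465), LOC_Os05g36280 (chromosome 5, 21499419 to 21500179) and LOC_Os11g05730 (chromosome 11, 2625662 to 2626283). The H4 genes are LOC_Os07g36500 (chromosome 7, 21827213 to 21827867), LOC_Os09g26340 (chromosome 9, 15916005 to 15917026), LOC_Os09g38020 (chromosome 9, 21911963 to 21912683) and LOC_Os10g39410 (chromosome 10, 21019255 to 21019903). Positions are those of the authors' files, and no source used here names their genome build. Genes of a histone family encode nearly the same protein and may share reads, and how such reads were assigned is not given either, so the split of a signal among near-identical copies is uncertain.

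For 8 of the 10 genes no other gene in the files overlaps the locus. The whole length of LOC_Os09g26340, 1022 bases, lies inside LOC_Os09g26350 (chromosome 9, 15916005 to 15917624) on the opposite strand. LOC_Os09g26340 was listed at 0 in all 10 libraries, whereas LOC_Os09g26350 was at 12.3 to 27.3 FPKM. The labels name a library kit but no use of strand in counting, and fragments from the overlapped H4 locus cannot be told apart from those of its neighbour. The zero is therefore no measure of this H4 gene, which was not tested. LOC_Os10g39410 shares 72 bases with LOC_Os10g39420, which was at 6.5 to 12.1 FPKM.

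Each of the 3 H4 genes with counts was more abundant than any of the H3 genes in every library. LOC_Os09g38020 and LOC_Os10g39410 had the highest levels, with means over the 10 libraries of 574 and 486 FPKM, followed by LOC_Os07g36500 at 82.0 FPKM. LOC_Os09g38020 was above LOC_Os10g39410 in every library except OsJAZ1-OE drought replicate 1, so that this pair did not differ beyond its spread in OsJAZ1-OE under drought. The H3 genes followed at means of 34.6 FPKM for LOC_Os01g64640, 29.0 for LOC_Os05g36280, 18.9 for LOC_Os06g06510, 12.3 for LOC_Os06g06460, 7.18 for LOC_Os11g05730 and 2.06 for LOC_Os04g34240. In ZH11 under normal conditions the libraries of neighbouring H3 genes overlapped, for example at 43.9 ± 27.7 FPKM (SD, n = 3) for LOC_Os01g64640 and 39.6 ± 35.1 FPKM (SD, n = 3) for LOC_Os05g36280. Within each ZH11 normal library the order from LOC_Os05g36280 down to LOC_Os04g34240 was nevertheless the same, and only LOC_Os01g64640 and LOC_Os05g36280 changed places.

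To see how drought changed these transcripts in each genotype, drought libraries were compared with normal libraries by edgeR's quasi-likelihood test in a model over all 10 libraries and 24850 genes, with Benjamini-Hochberg adjustment. Genes count as called below where the adjusted p was under 0.05 and the level changed at least 2-fold. SE is the standard error of a log2 fold change, derived from the F statistic of the test. The H3 genes fell strongly under drought in both genotypes, with a normal mean that exceeded the drought mean 4.75- to 31.4-fold in ZH11 and 4.74- to 36.1-fold in OsJAZ1-OE. All 6 were called lower in ZH11, where 9.03% of all genes tested were called lower and 14.4% were called in either direction. All 6 were also called lower in OsJAZ1-OE, where 6.62% of all genes were called lower and 11% in either direction. Their median log2 fold change was -4.0 in ZH11 and -3.64 in OsJAZ1-OE, against 0.00 over all genes tested in both. The H3 genes are among those that the study itself picked from these libraries by their change under drought, so that their direction is not independent evidence.

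LOC_Os01g64640, the most abundant H3 gene of the set, was at 33.3, 75.3 and 23.1 FPKM in the ZH11 normal libraries and at 8.65 and 9.81 FPKM under drought. In OsJAZ1-OE it was at 33.9, 49.9 and 87.8 FPKM under normal conditions and at 12.3 and 11.8 FPKM under drought. No drought library reached a normal library, although the normal libraries themselves were wide apart. The log2 fold change was -2.34 in ZH11 (SE 0.55, adjusted p = 0.00553 by edgeR) and -2.21 in OsJAZ1-OE (SE 0.53, adjusted p = 0.00732), the smallest fall among the H3 genes in either genotype.

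LOC_Os05g36280 was at 24.2, 79.8 and 14.8 FPKM in ZH11 under normal conditions and at 1.33 and 3.40 FPKM under drought. In OsJAZ1-OE its levels were 34.8, 38.8 and 83.5 FPKM under normal conditions and 3.32 and 6.36 FPKM under drought. The drought libraries of each genotype were wide apart as well, and all stood well below the lowest normal library. It fell, with a log2 fold change of -4.16 in ZH11 (SE 0.88, adjusted p = 0.00296 by edgeR) and of -3.39 in OsJAZ1-OE (SE 0.78, adjusted p = 0.00584).

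The neighbouring genes LOC_Os06g06460 and LOC_Os06g06510 fell in both genotypes. LOC_Os06g06460 went from 13.5, 29.7 and 8.35 FPKM to 1.95 and 1.18 FPKM in ZH11, and from 14.8, 15.8 and 33.4 FPKM to 2.01 and 2.79 FPKM in OsJAZ1-OE. LOC_Os06g06510 went from 18.1, 54.2 and 12.4 FPKM to 1.01 and 1.49 FPKM in ZH11, and from 17.9, 26.0 and 54.2 FPKM to 1.92 and 2.32 FPKM in OsJAZ1-OE. Under normal conditions LOC_Os06g06510 was the higher of the pair in every library, while under drought neither was higher throughout. In ZH11 the log2 fold changes were -3.51 (SE 0.65, adjusted p = 0.00126 by edgeR) for LOC_Os06g06460 and -4.60 (SE 0.86, adjusted p = 0.00142) for LOC_Os06g06510. In OsJAZ1-OE they were -3.10 (SE 0.60, adjusted p = 0.00226) and -3.88 (SE 0.78, adjusted p = 0.00278).

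The least abundant H3 genes rested on few fragments under drought. LOC_Os04g34240 was at 1.60, 5.54 and 1.18 FPKM in ZH11 normal libraries and at 0.0909 and 0.0859 FPKM under drought, where these levels stand for 4 and 3 fragments. In OsJAZ1-OE it was at 2.57, 2.90 and 6.21 FPKM under normal conditions and at 0.182 and 0.218 FPKM under drought, or 9 fragments in each library. Among the H3 genes its conditions were the furthest apart in ZH11, where the lowest normal library exceeded the highest drought library 13.0-fold. The log2 fold changes were -4.83 in ZH11 (SE 0.94, adjusted p = 0.00178 by edgeR) and -4.20 in OsJAZ1-OE (SE 0.82, adjusted p = 0.00225).

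LOC_Os11g05730 was at 6.70, 19.6 and 3.80 FPKM in ZH11 under normal conditions and at 1.09 and 0.321 FPKM under drought, the latter from 9 and 2 fragments. In OsJAZ1-OE it was at 8.04, 8.56 and 22.9 FPKM and, under drought, at 0.350 and 0.380 FPKM, from 3 fragments in each library. It was the H3 gene with the largest fall in OsJAZ1-OE, with a log2 fold change of -5.02 (SE 1.03, adjusted p = 0.00301 by edgeR), and in ZH11 it was -3.84 (SE 0.94, adjusted p = 0.00683). Without ZH11 drought replicate 2, the lower of the pair, the ZH11 call was lost (-3.14, adjusted p = 0.0613 by edgeR). Without OsJAZ1-OE drought replicate 1 the calls in OsJAZ1-OE were lost for LOC_Os01g64640 (-2.18, adjusted p = 0.0544) and LOC_Os05g36280 (-2.97, adjusted p = 0.0597). In every alternative tried, the fold change of each H3 gene under drought stayed negative.

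**Figure D1:**
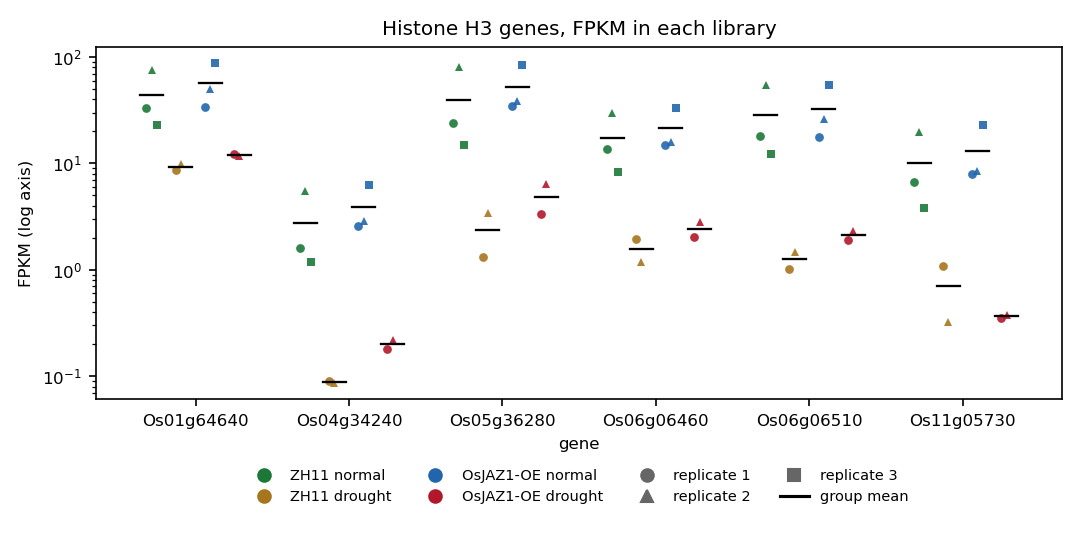
FPKM of the 6 histone H3 genes in each of the 10 libraries, on a log axis, with 1 symbol per library, shaped by replicate number, and a bar at the group mean. In both genotypes every drought library lies below every normal library for every gene, and ZH11 normal replicate 2 and OsJAZ1-OE normal replicate 3 are the highest of their groups for all 6 genes.

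For each of the 6 H3 genes the drought libraries lay below all normal libraries of the same genotype, which over all genes tested was so for 31.3% in ZH11 and 31.6% in OsJAZ1-OE. In these bulk shoots, fewer cells that express a gene and less RNA per cell cannot be told apart. The 3 photosynthesis genes also fell in both genotypes. Of the root genes, the one tested rose. The other, too low to be tested, was at 0.0904 to 0.654 FPKM in the normal libraries and at 0 in the drought libraries. The part of these marker genes in the result was not tested.

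The H4 genes changed little by comparison. None of the 3 H4 genes tested was called in either genotype, and their median log2 fold change was -0.43 in ZH11 and -0.35 in OsJAZ1-OE. At an adjusted p under 0.05 without the fold limit, 2 of 3 fell in ZH11, where 22.8% of all genes tested fell by this rule, and 1 of 3 fell in OsJAZ1-OE, where 20% of all genes fell.

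LOC_Os09g38020, the most abundant H4 gene, was at 658, 649 and 603 FPKM in ZH11 under normal conditions and at 430.2 and 548 FPKM under drought. In OsJAZ1-OE it was at 644, 591 and 635 FPKM under normal conditions and at 462 and 524 FPKM under drought. The conditions did not overlap in either genotype, but the normal mean exceeded the drought mean only 1.30-fold in ZH11 and 1.26-fold in OsJAZ1-OE. It fell, with a log2 fold change of -0.43 in ZH11 (SE 0.10, adjusted p = 0.00464 by edgeR) and of -0.35 in OsJAZ1-OE (SE 0.10, adjusted p = 0.0169). In ZH11 it was -0.29 without drought replicate 1 and still passed (adjusted p = 0.0487). In OsJAZ1-OE it no longer passed without drought replicate 1 (-0.22, adjusted p = 0.177 by edgeR), the highest adjusted p over the alternatives, of which the lowest was 0.0022 by DESeq2.

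LOC_Os10g39410 was at 525, 504 and 474 FPKM in ZH11 normal libraries and at 380.2 and 445 FPKM under drought. In OsJAZ1-OE the normal libraries held 551, 498 and 536 FPKM and the drought libraries 494 and 453 FPKM. The conditions did not overlap in either genotype but nearly met in OsJAZ1-OE, where the lowest normal and the highest drought library were almost level. It fell in ZH11, with a log2 fold change of -0.33 (SE 0.07, adjusted p = 0.00329 by edgeR). The value in OsJAZ1-OE was -0.13 (SE 0.07, adjusted p = 0.154).

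LOC_Os07g36500 was at 81.5, 109 and 78.6 FPKM in ZH11 under normal conditions and at 79.7 and 51.0 FPKM under drought. In OsJAZ1-OE it was at 89.3, 81.1 and 116 FPKM and, under drought, at 73.2 and 61.0 FPKM. The conditions overlapped in ZH11 but not in OsJAZ1-OE. Neither change passed edgeR's test, with log2 fold changes of -0.50 in ZH11 (SE 0.22, adjusted p = 0.0851 by edgeR) and -0.52 in OsJAZ1-OE (SE 0.22, adjusted p = 0.0788). In ZH11 the value of LOC_Os07g36500 rested on single drought libraries, as it was -0.90 without drought replicate 1 (adjusted p = 0.0115 by edgeR) and -0.18 without drought replicate 2 (adjusted p = 0.55). Over all alternatives its adjusted p was 0.0115 to 0.55 in ZH11 and 0.0251 to 0.283 in OsJAZ1-OE, and DESeq2 put it under 0.05 in both (0.0417 and 0.0343).

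**Figure D2:**
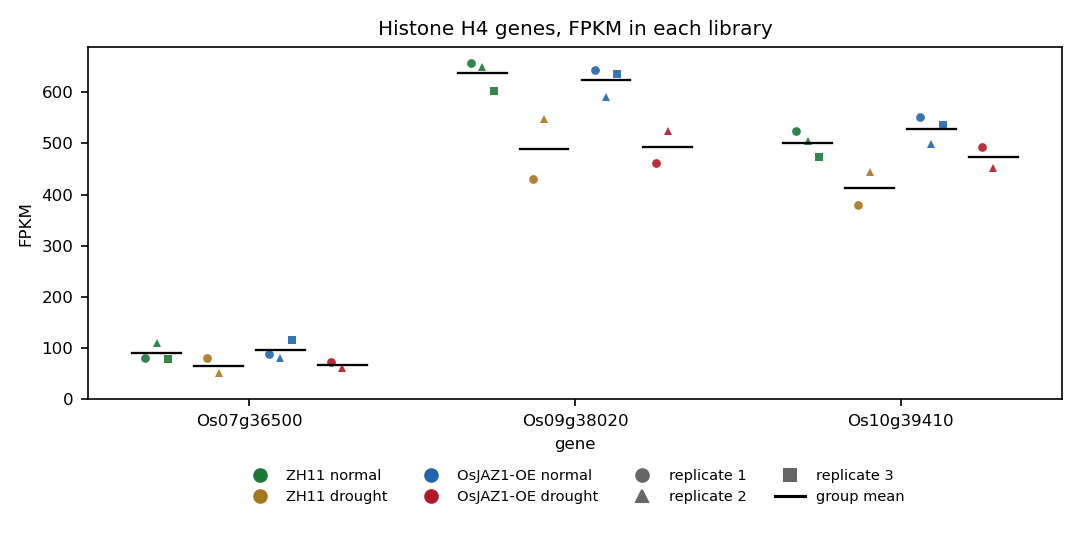
FPKM of the 3 histone H4 genes with counts in each of the 10 libraries, on a linear axis from 0, with 1 symbol per library, shaped by replicate number, and a bar at the group mean. The drought libraries of LOC_Os09g38020 lie at 430.2 to 548 FPKM, below the normal libraries at 591 to 658 FPKM, and those of LOC_Os07g36500 overlap the normal libraries in ZH11.

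Summed over the family, the H3 genes were at 97.4, 264 and 63.6 FPKM in the ZH11 normal libraries and at 14.1 and 16.3 FPKM under drought. The OsJAZ1-OE libraries held 112, 142 and 288 FPKM of H3 under normal conditions and 20.1 and 23.9 FPKM under drought. The H4 sum was 1156 to 1287 FPKM over the normal libraries and 890.1 to 1043 FPKM over the drought libraries. H4 transcripts thus outnumbered those of the listed H3 genes 4.47- to 18.2-fold in normal libraries and 43.4- to 64.1-fold in drought libraries, with no overlap between the conditions. These sums leave out the H3.3 genes and the other H4 genes, which are given below. The listed H3 genes are also among those the study picked by their change under drought. The ratio therefore describes the listed genes and not the histone families.

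The make-up of the H3 transcripts also differed between the conditions. LOC_Os01g64640 made 28.5 to 36.3% of the H3 sum in the normal libraries and 49.5 to 61.2% in the drought libraries. LOC_Os06g06510 went from 15.97 to 20.5% to 7.18 to 9.69%, and LOC_Os04g34240 from 1.64 to 2.30% to 0.528 to 0.914%. For these genes the normal and the drought libraries did not overlap. The shares of LOC_Os05g36280 (23.3 to 31.1% and 9.43 to 26.6%), LOC_Os06g06460 (11.1 to 13.9% and 7.22 to 13.8%) and LOC_Os11g05730 (5.97 to 7.96% and 1.59 to 7.71%) overlapped. Among the H4 genes, LOC_Os09g38020 made 49.4 to 52.2% of the sum under normal conditions and 44.9 to 52.5% under drought. No test was made of these shares.

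**Figure D3:**
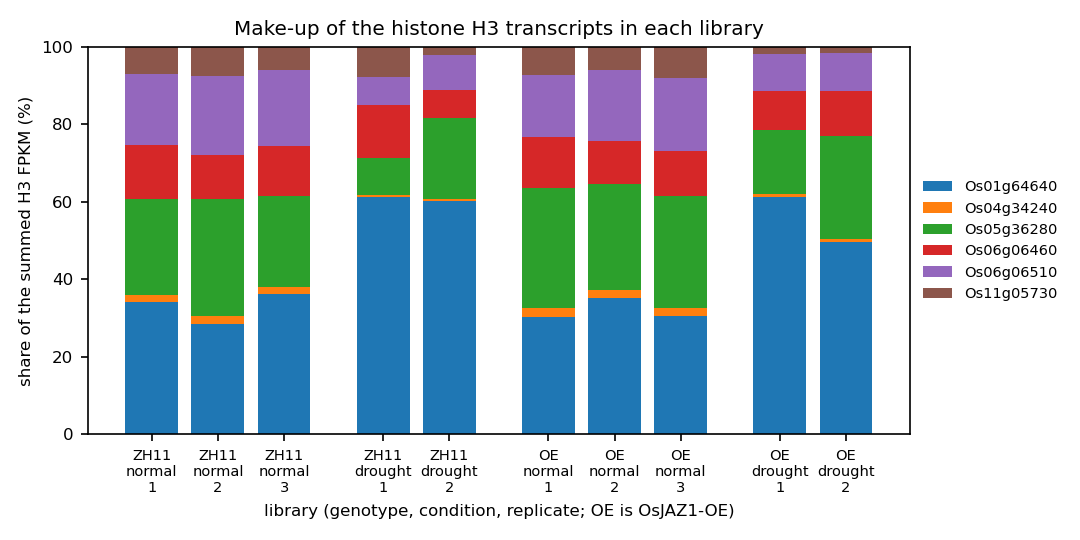
Share of each of the 6 histone H3 genes in the summed H3 FPKM of each library, as stacked bars that add up to the whole. LOC_Os01g64640, at the bottom, takes 28.5 to 36.3% in the 6 normal libraries and 49.5 to 61.2% in the 4 drought libraries.

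The H3 genes varied widely between libraries of the same group under normal conditions, and they did so together. ZH11 normal replicate 2 and OsJAZ1-OE normal replicate 3 were the highest of their groups for all 6 H3 genes, whereas of all genes tested 33.8% and 31.9% were highest there by counts scaled to library size. The H3 genes stood above the mean of the other normal libraries by a median of 1.91 on the log2 scale in ZH11 and 1.17 in OsJAZ1-OE. From the lowest to the highest library, the log2 range within the group had a median of 2.20 over the H3 genes in ZH11 and of 1.32 in OsJAZ1-OE. Over all genes tested these medians were 0.21 and 0.21, and over the H4 genes 0.17 and 0.14. As deposited, these libraries had the lowest totals of their groups, 33022102 and 32396154 fragments, and with the library factor divided out 31546621 and 33812522, the lowest and the highest of their groups.

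Many of the other genes of chromatin and DNA replication were also highest in the same libraries, counted by log2 CPM (counts scaled to library size). All 4 of the other H4 genes tested, 7 of 8 H2A genes, 6 of 6 H2B genes and 8 of 9 genes of DNA replication and mitosis were highest in ZH11 normal replicate 2. In OsJAZ1-OE normal replicate 3 this held for 4 of 4, 6 of 8, 5 of 6 and 8 of 9 of these genes. Of the 3 CAF-1 genes, which assemble chromatin, 1 was highest in each of these libraries. None of the 3 photosynthesis genes was highest there, nor was an H3.3 gene on this scale, although by FPKM LOC_Os03g27310, an H3.3 gene, was highest in ZH11 normal replicate 2 by a small margin (1011 against 996 and 998 FPKM). The sum of 4 growth-regulating genes of dividing young leaves (the GRF and GIF families) was 3.22 FPKM in ZH11 normal replicate 2, against 1.73 and 1.98 FPKM in the others of its group. In OsJAZ1-OE normal replicate 3 it was 4.24 FPKM, against 2.27 and 2.57 FPKM. In the drought libraries this sum lay at 2.25 to 3.42 FPKM, within the range of the normal libraries. The part of these marker genes in the difference between libraries was not tested.

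Leaving out these 2 libraries, a choice made after seeing the data, all 6 H3 genes were still called lower under drought in both genotypes. The log2 fold changes were then -3.82 to -1.66 in ZH11 (adjusted p = 8.26e-05 to 0.00344 by edgeR) and -4.37 to -1.75 in OsJAZ1-OE (adjusted p = 5.56e-05 to 0.000869 by edgeR).

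Across the 10 libraries, log2 CPM of any pair of H3 genes had a Pearson correlation of 0.92 to 0.99 (15 pairs). The deviations from the group means, which leave out the difference between conditions, were correlated at 0.62 to 0.99. Between an H3 and an H4 gene the deviations were correlated at -0.13 to 0.92 (18 pairs). These values describe how the genes vary together over libraries of 4 groups, within which all genes share the same depth, and carry no p.

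Genes outside the set were ranked by the correlation of their log2 CPM, over the 10 libraries, with the mean profile of the 9 genes tested. The most similar were LOC_Os02g45940, listed as another H4 gene (r = 0.996), and LOC_Os05g02300, listed as an H2A gene (r = 0.994). LOC_Os04g43230, LOC_Os06g43600, LOC_Os01g16450, LOC_Os03g17100 (listed as an H2A gene), LOC_Os01g59120 and LOC_Os09g10980 followed, at r = 0.987 to 0.992. LOC_Os03g17100 was the most abundant of these, with a mean of 175 FPKM in ZH11 normal and 64.3 FPKM in ZH11 drought libraries. On the scale of log2(FPKM + 0.1), 6 of these 8 genes were again among the first 8, and with the profile of the H3 genes alone 4 of 8 were shared between the scales.

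Ranked by deviations from the group means instead, the first genes were LOC_Os04g11524, LOC_Os01g53680, LOC_Os06g47544 and LOC_Os02g45940 (r = 0.983 to 0.988), followed by LOC_Os09g07830, LOC_Os11g05880, LOC_Os09g26350 and LOC_Os06g43600 (r = 0.975 to 0.981). With the profile of the H3 genes alone, LOC_Os05g02300 (r = 0.999) and LOC_Os08g38300, listed as an H2B gene (r = 0.996), came first by log2 CPM. By deviations, the first was LOC_Os09g26350 (r = 0.997), the gene that covers the H4 locus LOC_Os09g26340 on the other strand. LOC_Os09g26350 was at 18.4, 27.3 and 15.7 FPKM in the ZH11 normal libraries and at 12.3 and 12.5 FPKM under drought. The highest OsJAZ1-OE library for it was also normal replicate 3, at 27.3 FPKM, and the drought libraries of OsJAZ1-OE were at 14.7 and 15.7 FPKM. It fell in ZH11, with a log2 fold change of -0.76 (SE 0.21, adjusted p = 0.0145 by edgeR), and its value in OsJAZ1-OE was -0.53 (SE 0.21, adjusted p = 0.0665). In these counts the signals of both loci cannot be told apart.

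The other histone genes were listed from general knowledge of rice loci, and were counted at an adjusted p under 0.05. By this rule 22.8% of all genes tested fell in ZH11 and 20% in OsJAZ1-OE, which are the shares to set beside the counts of each list below. Of the other H4 genes, 3 of 4 tested fell in ZH11 and 4 of 4 in OsJAZ1-OE. LOC_Os02g45940 was at 21.9, 53.9 and 11.8 FPKM in ZH11 normal and at 1.74 and 1.82 FPKM in drought libraries, and fell, with a log2 fold change of -4.08 in ZH11 (SE 0.74, adjusted p = 0.00118 by edgeR) and of -3.48 in OsJAZ1-OE (SE 0.66, adjusted p = 0.00196). LOC_Os01g61920, at a much higher level, fell less, with a log2 fold change of -0.66 in ZH11 (SE 0.09, adjusted p = 0.000168 by edgeR) and of -0.46 in OsJAZ1-OE (SE 0.09, adjusted p = 0.00205), from 249.5 to 317 FPKM in the normal libraries to 182 to 222 FPKM in the drought libraries. LOC_Os03g02780 lay between them and near the threshold, at -1.12 in ZH11 (adjusted p = 0.0561 by edgeR) and -1.17 in OsJAZ1-OE (adjusted p = 0.0496). Another listed H4 gene was at 0 in all 10 libraries and was not tested. Whether another gene overlaps its locus was not checked, so this 0 does not show the gene to be silent. The H4 family thus held genes with large and with small changes under drought. Of the genes named from these lists, LOC_Os02g45940, LOC_Os05g02300, LOC_Os03g17100, LOC_Os03g06670, LOC_Os08g38300, LOC_Os01g36390 and LOC_Os08g40170 are, like the H3 genes, among those the study listed as changed in these libraries, so that their direction is not independent evidence either.

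The H3.3 genes, for the replacement form of H3, were abundant and did not pass the test. LOC_Os06g04030 was at 971 to 1207 FPKM over the 10 libraries, with log2 fold changes under drought of -0.07 in ZH11 (SE 0.08, adjusted p = 0.484 by edgeR) and 0.18 in OsJAZ1-OE (SE 0.08, adjusted p = 0.101). LOC_Os03g27310 was at 916 to 1033 FPKM, with -0.07 (SE 0.07, adjusted p = 0.417) and -0.05 (SE 0.07, adjusted p = 0.615). Each of these genes alone exceeded the summed H3 genes in every library. CENH3 (LOC_Os05g41080), the H3 form of centromeres, was at 3.99 to 6.24 FPKM and did not pass either, at -0.17 (adjusted p = 0.547) and 0.07 (adjusted p = 0.809).

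Of 8 H2A genes measured, 6 fell in each genotype, 3 of them past the fold limit in ZH11 and 4 in OsJAZ1-OE. Of all genes tested, 9.03% in ZH11 and 6.62% in OsJAZ1-OE fell past that limit. LOC_Os03g17100 fell, with a log2 fold change of -1.49 in ZH11 (SE 0.27, adjusted p = 0.00129 by edgeR) and of -1.61 in OsJAZ1-OE (SE 0.27, adjusted p = 0.000996). LOC_Os12g25120 had log2 fold changes of -0.83 and -0.61 (adjusted p = 0.00143 and 0.00881). LOC_Os07g36130, the most abundant H2A gene that did not pass, was at 1575 to 2003 FPKM over the 10 libraries.

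Among 3 genes for the forms H2A.X and H2A.Z, LOC_Os03g06670 fell, with a log2 fold change of -3.55 in ZH11 (SE 0.67, adjusted p = 0.00144 by edgeR) and of -2.94 in OsJAZ1-OE (SE 0.60, adjusted p = 0.00304). LOC_Os03g53190 instead rose, by 0.38 on the log2 scale in ZH11 (SE 0.06, adjusted p = 0.000429 by edgeR) and by 0.33 in OsJAZ1-OE (SE 0.06, adjusted p = 0.00151). LOC_Os10g28230 was at -1.43 and -1.35 (adjusted p = 0.0526 and 0.0635).

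Of 6 H2B genes, 3 fell in ZH11 and 4 in OsJAZ1-OE. LOC_Os08g38300 changed most, from 64.7, 125 and 50.02 FPKM to 23.8 and 20.9 FPKM in ZH11, with a log2 fold change of -1.85 there (SE 0.37, adjusted p = 0.00228 by edgeR) and of -2.0 in OsJAZ1-OE (SE 0.37, adjusted p = 0.00176). LOC_Os05g49860 had log2 fold changes of -0.75 and -0.73 (adjusted p = 0.000314 and 0.000484). LOC_Os01g05970, the most abundant that did not pass in ZH11, was at -0.26 there (adjusted p = 0.0643 by edgeR) and at -0.32 in OsJAZ1-OE (adjusted p = 0.0347). With the pair of high normal libraries left out, 2 of the H2B genes passed in each genotype, and of the H2A genes 6 in ZH11 and 5 in OsJAZ1-OE.

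Chromatin assembly factor CAF-1 deposits H3 and H4 on newly made DNA. Of its 3 listed genes, LOC_Os01g67100 fell, with a log2 fold change of -1.77 in ZH11 (SE 0.55, adjusted p = 0.0225 by edgeR) and of -1.72 in OsJAZ1-OE (SE 0.52, adjusted p = 0.0226), at levels under 1 FPKM. LOC_Os08g01680 rose by 0.49 in ZH11 (SE 0.10, adjusted p = 0.00261 by edgeR) and was at 0.03 in OsJAZ1-OE (adjusted p = 0.82). LOC_Os03g43890, the most abundant, did not pass in either genotype, at 0.10 and 0.08 (adjusted p = 0.308 and 0.417).

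Of 9 genes of DNA replication and mitosis, 6 fell in each genotype, all of them past the fold limit, against 9.03% of all genes tested in ZH11 and 6.62% in OsJAZ1-OE. LOC_Os08g40170 went from 1.99, 5.70 and 1.84 FPKM to 0.318 and 0.126 FPKM in ZH11, a log2 fold change of -3.87 (SE 0.71, adjusted p = 0.00126 by edgeR), and of -3.41 in OsJAZ1-OE (SE 0.61, adjusted p = 0.00136). LOC_Os01g36390 fell, with a log2 fold change of -2.94 in ZH11 (SE 0.48, adjusted p = 0.000604) and of -2.62 in OsJAZ1-OE (SE 0.43, adjusted p = 0.000783). LOC_Os02g56130, the most abundant that did not pass, was at 15.3 to 21.8 FPKM over the 10 libraries. The same 6 of 9 counts were found without the 2 normal libraries named above. The GRF and GIF genes did not move as a group, with 1 of 3 tested lower and 1 higher in ZH11 and none passing in OsJAZ1-OE.

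**Figure D4:**
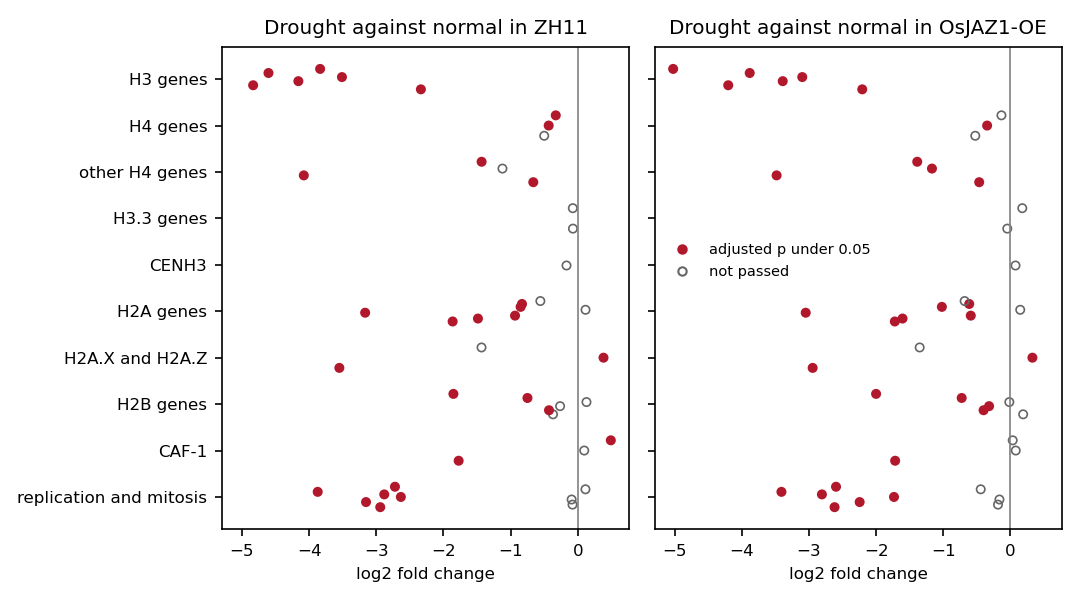
Log2 fold change under drought of each gene tested, 1 point per gene, by gene list, in ZH11 (left) and OsJAZ1-OE (right), with points filled where the adjusted p of edgeR was under 0.05. The 6 H3 genes lie at -2.34 to -4.83 in ZH11 and at -2.21 to -5.02 in OsJAZ1-OE, while the H3.3 genes lie near 0.

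To ask whether these H3 and H4 genes differed with the overexpression of OsJAZ1, OsJAZ1-OE was compared with ZH11 in each condition. None of the 9 genes tested was called under normal conditions, where 1.59% of all genes tested were called. The log2 fold changes of the H3 genes were 0.14 to 0.44 (SE 0.41 to 0.56, adjusted p = 0.727 to 0.926 by edgeR). Their sign depended on single libraries, since the median of 0.33 became -0.06 when ZH11 normal replicate 3 was left out and -0.20 when OsJAZ1-OE normal replicate 3 was. It became 1.18 when ZH11 normal replicate 2 was left out, the highest over the alternatives. The 95% intervals of the single H3 genes together reached from -0.99 to 1.59. For each of these genes, a higher and a lower level in OsJAZ1-OE both remain possible. The H4 genes were at -0.06 to 0.08, with intervals within -0.34 to 0.50.

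Under drought none of the 9 genes was called either, where 1.73% of all genes were called. Of the 6 H3 genes, 5 had a higher fitted level in OsJAZ1-OE, by log2 fold changes of 0.44 to 1.11, and LOC_Os11g05730 was at -0.84 (SE 0.62 to 1.58, adjusted p = 0.632 to 0.824 from edgeR for the 6 genes). The summed H3 level was 15.2 ± 1.52 FPKM (SD, n = 2) in ZH11 and 22.0 ± 2.71 FPKM (SD, n = 2) in OsJAZ1-OE. The median log2 fold change of the H3 genes was 0.76, but 0.47 without OsJAZ1-OE drought replicate 2 and 0.38 by limma on log2(FPKM + 1). With 2 libraries a group and few fragments, the intervals of single H3 genes ran from -4.33 to 4.12.

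Among the H4 genes under drought, LOC_Os10g39410 had the lowest adjusted p in this comparison, at 0.25 (SE 0.08, adjusted p = 0.109 by edgeR), with 380.2 and 445 FPKM in ZH11 and 494 and 453 FPKM in OsJAZ1-OE. Its adjusted p stayed between 0.0652 and 0.393 over the alternatives. LOC_Os10g39420, which shares 72 bases with it on the other strand, was at 0.29 (SE 0.09, adjusted p = 0.134 by edgeR). Outside the set, LOC_Os03g51200, 1 of 8 H2A genes tested, was called higher in OsJAZ1-OE under drought (1.73% of all genes were called). It was at 1.11 (SE 0.24, adjusted p = 0.0279 by edgeR), with 4.84 and 6.42 FPKM in ZH11 and 11.3 and 13.3 FPKM in OsJAZ1-OE. Under normal conditions it was at 0.77 (SE 0.18, adjusted p = 0.0403 by edgeR), short of the fold limit. No other listed histone gene passed in either condition.

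**Figure D5:**
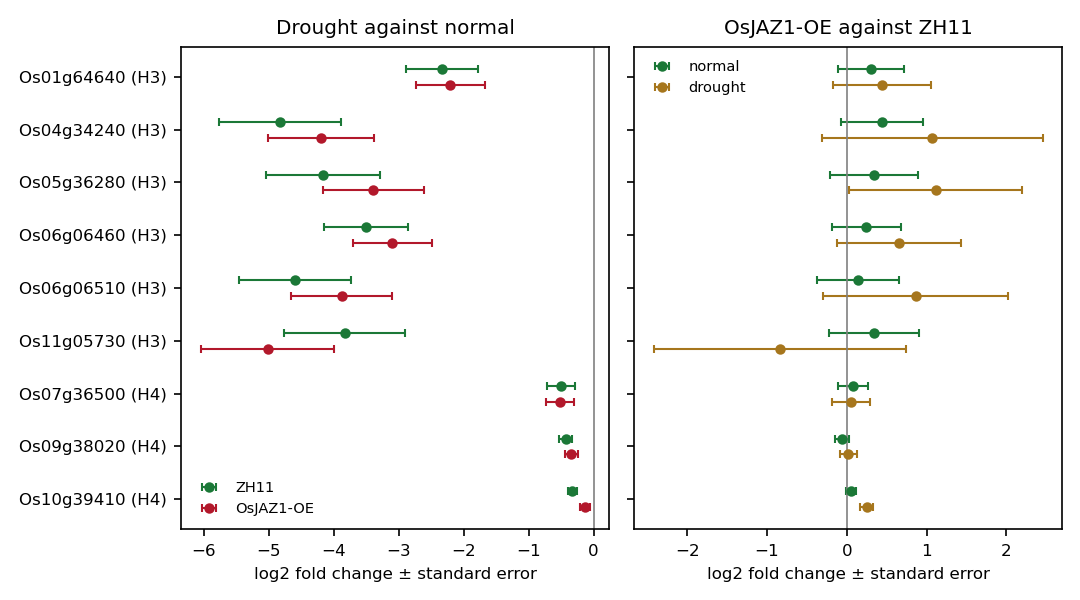
Log2 fold changes of the 9 genes tested, with SE as bars, for drought against normal in each genotype (left) and for OsJAZ1-OE against ZH11 in each condition (right). On the left all 6 H3 genes lie at -2.21 or lower and the H4 genes at -0.52 to -0.13. On the right the values of the H3 genes lie between -0.84 and 1.11.

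The drought responses of the genotypes were also compared directly, as the change in OsJAZ1-OE minus that in ZH11. No H3 or H4 gene passed, and neither did any gene of the whole set (0% called by edgeR, with 2097 of 24850 genes at an unadjusted p under 0.05, 101 called by DESeq2 and 5 by limma). The differences were -1.19 to 0.77 for the H3 genes (adjusted p = 0.887 to 0.978 by edgeR) and -0.02 to 0.19 for the H4 genes. The median of the H3 genes, 0.52, ranged from -0.33 without ZH11 normal replicate 2 to 1.01 without OsJAZ1-OE normal replicate 3. Their 95% intervals lay within -4.90 to 3.86 for the H3 genes and within -0.70 to 0.65 for the H4 genes, so that these data do not show the responses to be equal. The drought comparison of each genotype uses its own libraries, but the values of the 4 comparisons share groups and are not independent of one another.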

How the data were processed

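RNA-seq values of 10 shoot libraries were used. As deposited by the authors, the files hold FPKM and expected counts of 101273 transcripts. The labels name TopHat2, Picard, SAMtools 0.1.18 and GATK, and the kit NEBNext Ultra; no source used here gives the counting program, genome build or annotation. The deposited expected counts appear to carry 1 factor per library (0.884 to 1.19), since 89.6 to 90.8% of gene sums of up to 1000 were whole multiples of it to within 0.01; fragment numbers in the text have it divided out, and for the histone genes all 100 of 100 values were then whole to within 0.05. Totals without it were 28610398 to 37795897.

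Both units were summed per gene. Rounded expected counts were filtered by filterByExpr, scaled by TMM and fitted with edgeR 4.0.16 in R 4.3.3, each group having its own mean. The SE was not fitted directly. It was taken as the size of the log2 fold change divided by the square root of edgeR's F statistic. Intervals use this SE and 10.7 degrees of freedom, and are approximate. The code was tested on simulated data. DESeq2 1.42.0, limma 3.58.1 on log2(FPKM + 0.1) or log2(FPKM + 1), other filters and scalings, the replicate block and each library left out were alternatives. Spread within groups was set beside all genes tested, not genes of similar level. Promoter motifs and sequences were not analysed here.

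The genes, lists and tests were chosen with earlier results of these data known. All 10 histone genes are named, and of each other list at most 3, namely the 2 with the lowest adjusted p in ZH11 and the most abundant that did not pass; of the genes most like them, the first 8. LOC_Os08g38300 in the ranking by the H3 profile, and LOC_Os03g27310 in the count of highest libraries, are named again after their values were seen. LOC_Os03g51200 is named outside this rule, after its difference between genotypes was seen. The files do not pair locus IDs with names, so list membership outside the H3 genes rests on general knowledge of rice loci. Intervals cover the spread between these libraries.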

Additional observations from a re-analysis of the deposited data

How the results depend on the processing

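The fold changes of the histone genes under drought, with that of LOC_Os10g39410 between genotypes, were each followed through the alternatives. Counted as combinations of 1 fold change and 1 alternative, 392 kept their direction and their side of the threshold. A further 3 newly passed it, 3 lost it, and none reversed. The threshold includes the fold limit, which no H4 fold change reached in any alternative (at most 0.90 in size). While the limit was kept, the H4 combinations could therefore not change side. At an adjusted p under 0.05 alone some did. LOC_Os07g36500 passed by DESeq2 in both genotypes, and LOC_Os09g38020 in OsJAZ1-OE no longer passed without the pair of high normal libraries (adjusted p = 0.0541 by edgeR). The H3 genes called lower were 6 in both genotypes in each alternative that kept all libraries, and 5 to 6 in ZH11 and 4 to 6 in OsJAZ1-OE with 1 library left out. The labels do not tie libraries of the same number together. The deviations of 13 same-numbered pairs of libraries from their group means were correlated at -0.101 to 0.242 (median 0.086, 11 of 13 above 0, 6 above 0.1). For 24 pairs of different numbers the range was -0.242 to 0.218 (median -0.071, 7 of 24 above 0, 3 above 0.1). Same-numbered pairs were thus more often above 0. In a group of 2 libraries, however, the deviations mirror each other, so values recur with the same or the opposite sign. The counts and medians of these pairs are therefore not independent and do not decide on a pairing. As the labels give none, the numbers were not taken as a pairing. The replicate block left 6 and 6 H3 genes called lower and changed the call of no histone gene. With no fold limit 2 H4 genes were called lower in ZH11 and 1 in OsJAZ1-OE. These are the 3 combinations that newly passed, and they follow from dropping the limit alone. With limma on log2(FPKM + 1), LOC_Os04g34240 was at -1.62 in ZH11, where the pseudocount exceeds its level under drought.

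Over all genes, the number called under drought was 3570 in ZH11 (3185 to 3581 with 1 library left out, 1999 by limma with a pseudocount of 1, 11044 with no fold limit) and 2729 in OsJAZ1-OE (2109 to 2790, 1569 and 9694). Between genotypes it was 394 under normal conditions (308 to 394 with 1 library left out, 204 by limma with a pseudocount of 1, 261 with at least 50 counts, 952 with no fold limit) and 430 under drought (296 to 498, 230, 278 with only the groups compared and 915 with no fold limit). For the difference between the drought responses it was 0 (0 to 123 with 1 library left out, 101 by DESeq2, 5 and 11 by limma with a pseudocount of 0.1 and 1, and 45 without a filter). The cause of these shifts was not tested. Depth limits the H3 genes under drought most, where a value rests on 2 to 145 fragments, against 31 to 983 under normal conditions.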
